A study of Homo sapiens with 21 samples.

Results

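The proteasome subunit and assembly factor genes were read from 21 mRNA libraries of HEK 293FT cells. Members were the genes annotated as protein-coding whose symbol is PSMA, PSMB, PSMC, PSMD, PSME, PSMF or PSMG followed by a number, which gave 48 of the 27142 genes in the table. A further 6 symbols that begin in this way were left out, namely PSMC3IP, which encodes a recombination protein, and 5 antisense RNAs.

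HEK 293FT is a line derived from human embryonic kidney cells that carries the SV40 large T antigen. The cells, at passages 8 to 12, received plasmids by lipofection, and RNA was taken 48 hours later. Each of 7 groups had 3 libraries: NT shRNA (a non-targeting short hairpin RNA), ANXA4 shRNA, B4GALNT1 shRNA, RfxCasR with an NT gRNA, RfxCasR with a B4GALNT1 gRNA, RfxCasR with an NT array and RfxCasR with an ANXA4 array. RfxCasR is a CRISPR enzyme that is directed to RNA by a guide RNA and cuts it, and the study asked how specific it is beside shRNAs against the same genes. The replicates are described as biological and nothing more is said of them, so the p-values measure the spread among these libraries, which may be technical. No untransfected cells were analysed here.

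The proteasome is the protease that degrades proteins tagged with ubiquitin. Its 20S core is a barrel of stacked rings, with PSMA subunits in the outer rings and PSMB subunits, which include the proteolytic sites, in the inner rings. The 19S cap binds ubiquitin and feeds substrate into the core: PSMC subunits form its ATPase ring, and most PSMD subunits form the rest of its base and its lid. PSMG proteins and a few PSMD proteins are chaperones that help to build the particle and are not part of the mature one. Under proteasome stress, cells are known to raise many of these genes together through the transcription factor NFE2L1.

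The unit was FPKM, in which reads are scaled to exon length and to library size. Read depth recovered from the FPKM steps was 21353717 to 30664896 reads in 15 libraries (all those without an array) and 34666475 to 39477798 reads in the 6 array libraries. For the arrays this rests on the smaller of 2 possible read steps, and the larger step would give 17333195 to 19738840 reads. ANXA4 measured 2.40 ± 0.22 FPKM (SD, n = 3) with the ANXA4 shRNA and 5.90 ± 0.378 with the NT shRNA. B4GALNT1 measured 2.78 ± 0.183 FPKM with its shRNA against 4.08 ± 0.179, and 2.21 ± 0.167 with its gRNA against 5.89 ± 0.907. In the array libraries ANXA4 went against the labels, with 7.03 ± 0.24 FPKM in the libraries labelled ANXA4 array and 3.03 ± 0.427 in those labelled NT array. The authors' deposited table gives ANXA4 at a log2 fold change of -1.21 for the same labels (adjusted p = 7.53e-17), the opposite of these FPKM values. No direction is therefore read from the array labels. Of 10 markers of the HEK 293 lineage, PAX2 was low (0.186 to 1.32 FPKM) and VIM was the most abundant (388 to 682 FPKM). Their summed level was 597.8 to 618.2 FPKM in the NT shRNA libraries and 774.5 to 921.6 in the other 18. Markers of other cell types were mostly near 0, with PTPRC (blood) at 0 to 0.045 FPKM and PECAM1 (endothelium) at 0 to 0.129, while COL1A1, a fibroblast collagen, was at 4.17 to 11.03. In bulk libraries such as these, fewer cells of a type and less RNA per cell cannot be told apart.

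Of the 48 genes, 44 reached 1 FPKM in 3 or more libraries and were tested. The other 4 stayed under 1 FPKM in every library. PSMA8, a testis form of an outer-ring subunit, was listed at 0 to 0.068 FPKM, and PSMB11, the thymus form of PSMB5, at 0 to 0.07. PSMB8, the interferon-induced counterpart of PSMB5, was at 0.112 to 0.697 FPKM. PSMD5, a chaperone of the 19S base, was listed at 0 to 0.078, and whether the strand counted or the annotated row bears on this value was not tested.

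The most abundant genes belonged to the 20S core. Averaged over the 21 libraries, PSMB4 was at 328 FPKM, PSMB3 at 302, PSMB1 at 289, PSMA4 at 249 and PSMA7 at 229. These are structural subunits of the inner (PSMB) and outer (PSMA) rings. The 3 subunits that carry the proteolytic sites lay lower, with PSMB7 (trypsin-like activity) at 188, PSMB5 (chymotrypsin-like activity) at 180.5 and PSMB6 (caspase-like activity) at 160.3 FPKM. PSMA5 was the lowest of the outer ring subunits other than PSMA8, at 34.2 FPKM. In the 19S cap PSMD3, PSMC3 and PSMD4 were highest at 142, 131 and 129 FPKM, and PSMC1 was lowest at 4.82. PSMC1 has 13 pseudogenes by name in GENCODE and PSMA6 has 4, so the reads of both could have been split between near-identical copies. The replacements for PSMB6 and PSMB7 in the immunoproteasome, PSMB9 and PSMB10, were at 2.43 and 13.4 FPKM. PSMB8 and PSMB9 are listed with 8 copies in the annotation used and the other members with 1. Their reads could likewise have been split, which was not tested.

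**Figure D1:**
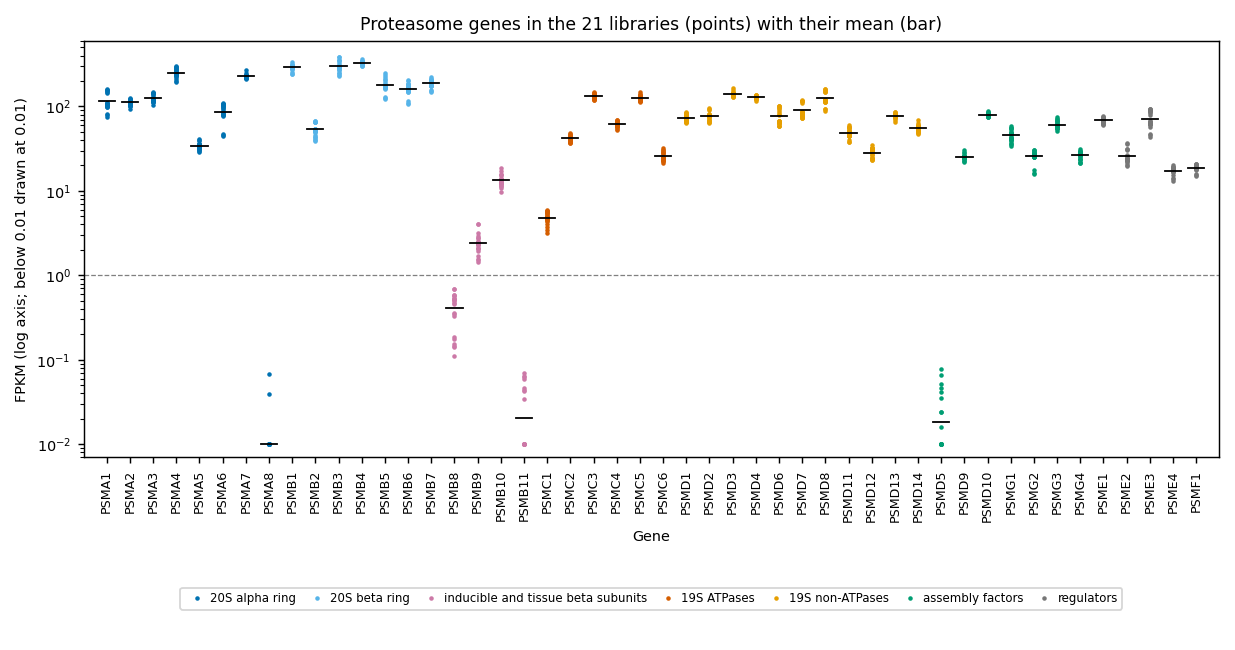
FPKM (log axis) of the 48 proteasome genes, one point per library (21 libraries) and a bar at their mean, coloured by role. The dashed line marks 1 FPKM. PSMA8, PSMB8, PSMB11 and PSMD5 lie below it in every library, and PSMB4, PSMB3 and PSMB1 are the highest.

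Promoter sequence was compared because several members moved together, but the shares given here cover the whole family and not the genes that moved. In the RefSeq promoter table (GRCh38.p14) 42 of the 48 genes were matched by symbol. PSMA7, PSMB1, PSMB6, PSMB7, PSMD4 and PSMG3 were not. The 250 bases before the annotated start were searched on both strands for 3 motifs, with no overlapping matches. TGACNNNGC, the core of the antioxidant response element bound by NFE2L1 and NFE2L2, was present for 13 of the 42 genes (31.0%) and for 13.2% of all 27305 genes. CCGGAAG, a core of ETS factor sites, was present for 11 (26.2%, against 10.2%). CCAAT, the box bound by NF-Y, was present for 19 (45.2%, against 37.0%). The promoters of 5 genes are shown as examples, 5′ to 3′ on the gene's strand, with a match in capitals. ATTGG is CCAAT on the opposite strand. PSMA6 and PSMG2 have more than 1 start in the table and 1 is shown. The windows are chr14:35292067-35292316 for PSMA6, chr17:38752491-38752740 for PSMB3, chr17:32444260-32444509 for PSMD11, chr18:12658488-12658737 for PSMG2 and chr17:42833147-42833396 for PSME3, all on the plus strand.
PSMA6: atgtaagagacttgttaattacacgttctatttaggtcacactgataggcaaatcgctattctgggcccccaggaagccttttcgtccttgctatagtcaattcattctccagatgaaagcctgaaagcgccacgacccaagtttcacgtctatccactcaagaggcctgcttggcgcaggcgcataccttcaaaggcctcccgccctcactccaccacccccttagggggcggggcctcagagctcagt
PSMB3: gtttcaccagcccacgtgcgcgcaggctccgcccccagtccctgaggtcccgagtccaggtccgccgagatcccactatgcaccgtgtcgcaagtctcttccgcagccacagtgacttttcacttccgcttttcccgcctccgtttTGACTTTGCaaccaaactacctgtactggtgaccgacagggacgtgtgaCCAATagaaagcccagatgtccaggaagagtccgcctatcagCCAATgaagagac
PSMD11: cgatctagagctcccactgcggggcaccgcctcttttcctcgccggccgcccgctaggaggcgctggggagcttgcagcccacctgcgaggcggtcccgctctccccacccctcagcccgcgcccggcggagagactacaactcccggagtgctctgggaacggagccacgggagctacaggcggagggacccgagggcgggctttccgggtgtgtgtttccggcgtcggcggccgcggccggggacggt
PSMG2: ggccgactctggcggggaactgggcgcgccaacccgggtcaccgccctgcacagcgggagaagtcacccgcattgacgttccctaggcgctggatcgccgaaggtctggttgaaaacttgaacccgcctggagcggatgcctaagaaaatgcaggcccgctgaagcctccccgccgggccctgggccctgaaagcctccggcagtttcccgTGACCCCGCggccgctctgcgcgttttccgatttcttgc
PSME3: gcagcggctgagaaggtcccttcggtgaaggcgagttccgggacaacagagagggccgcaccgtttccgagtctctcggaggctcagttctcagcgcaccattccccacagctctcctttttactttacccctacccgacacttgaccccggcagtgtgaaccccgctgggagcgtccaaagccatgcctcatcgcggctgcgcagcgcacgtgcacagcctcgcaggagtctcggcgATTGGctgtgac
PSMB3 held TGACNNNGC from base -104 and CCAAT from bases -55 and -13, counted from the start. PSMG2 held TGACNNNGC from base -39 and PSME3 held CCAAT on the opposite strand from base -12. None of the 3 motifs was in the windows of PSMA6 and PSMD11. A match describes the letters and is not evidence of binding.

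Differences between groups were tested with limma on log2(FPKM + 1), fitted to all 21 libraries and adjusted over 13679 genes (Benjamini-Hochberg, call at an adjusted p under 0.05). Values called log2 differences below are on that scale, followed by their standard error. By limma's moderated F test, a difference among the 7 groups was called for 39 of the 44 genes, against 89.5% of all genes tested. PSMA7, PSMC1, PSMD4, PSMD13 and PSMG4 were the 5 not called by that test. Of these, PSMD4 with the ANXA4 shRNA (-0.11, limma adjusted p = 0.0427) and PSMC1 with the NT gRNA were called against the NT shRNA when single comparisons were read. The call of PSMD4 was lost when any of the 6 libraries compared was left out (adjusted p = 0.0605 to 0.103 by limma), and also with no filter, after median-centring and with voom (0.0609 to 0.069). The ratio of the highest to the lowest group mean had a median of 1.34 over the 42 members averaging at least 10 FPKM, against 1.43 over the 6569 genes of that level. PSMA6 had the widest ratio (2.31), followed by PSME3 (1.99) and PSMA1 (1.96).

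Against the NT shRNA, the ANXA4 shRNA libraries had 33 of 44 proteasome genes called (51.8% of all genes tested), 23 higher (25.6% of all genes) and 10 lower (26.3%). The B4GALNT1 shRNA libraries had 29 called (44.4%), 23 higher (18.4%) and 6 lower (26.0%). RfxCasR with the NT gRNA against the NT shRNA gave 23 called (48.9%), 18 higher (22.4%) and 5 lower (26.5%). The excess over all genes was thus on the higher side in each. These 3 comparisons share the 3 NT shRNA libraries, and so each value of those libraries enters all of them. The authors' deposited tables called 33 of 45 members with the ANXA4 shRNA (45.1% of their genes) and 31 of 45 with the B4GALNT1 shRNA (39.0%). Libraries of the compared groups did not overlap for 35, 34 and 29 members in the order above, against 60.9%, 55.5% and 60.7% of all genes tested. The median log2 difference of the members was 0.15, 0.14 and 0.090, and that of all genes was -0.0076, -0.038 and -0.019. After median-centring of the libraries the comparisons split 22 higher and 8 lower, 24 and 3, and 20 and 2, and with voom on recovered reads 23 and 9, 24 and 3, and 18 and 3.

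The NT shRNA group had the lowest mean of the 7 groups for 20 of the 44 members (45.5%, against 16.7% of all genes). All 3 NT shRNA libraries lay below all other 18 for 13 members (29.5%, against 6.94%). These were PSMA3, PSMA4, PSMA6, PSMB1, PSMB3, PSMB5, PSMB6, PSMB7, PSMD7, PSMD11, PSMG1, PSMG2 and PSME3. The reverse held for 3 members, PSMD2, PSMD9 and PSME4 (6.82%, against 9.25%). TGACNNNGC was found before PSMA4, PSMB3, PSMG1 and PSMG2 of the first list and before PSMD9 and PSME4 of the second. It was not found before PSMA3, PSMA6, PSMB5, PSMD7, PSMD11 and PSME3 of the first or PSMD2 of the second. The share was 31.0% of the matched family and 13.2% of all genes. Both lists were drawn from these expression values, and a link between motif and level was not tested. The promoters of PSMB1, PSMB6 and PSMB7 were not searched. The summed HEK 293 lineage markers, with VIM as the largest term, were lowest in the same libraries (597.8 to 618.2 FPKM), and their part in these results was not tested.

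**Figure D2:**
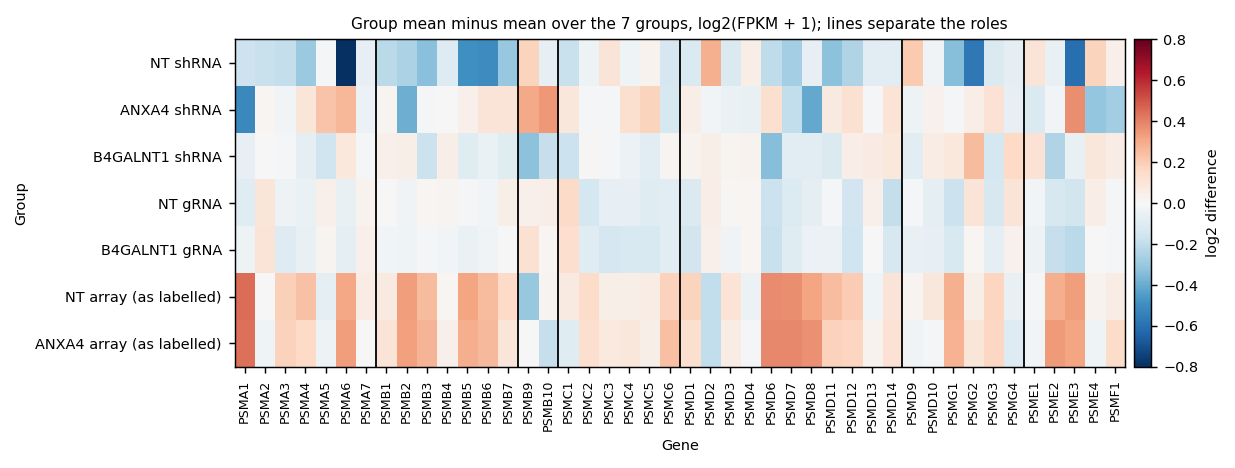
Colour shows each group mean minus the mean over the 7 groups, in log2(FPKM + 1), for the 44 tested genes (columns, ordered by role) and the 7 groups (rows). The NT shRNA row is below 0 (blue) for all 14 genes of the 20S core, with PSMA6 the lowest, and the array rows are above 0 (red) for most genes.

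Among the outer-ring genes PSMA6 moved most. It lies at chr14:35761523-35786685 (hg19, plus strand). PSMA6 measured 44.9, 46.8 and 46.2 FPKM in the NT shRNA libraries, 102, 104 and 97.1 with the ANXA4 shRNA, and 87.3, 94.1 and 85.4 with the B4GALNT1 shRNA. It measured 81.2, 80.8 and 79.9 FPKM with the NT gRNA, 78.8, 82.2 and 77.5 with the B4GALNT1 gRNA, 99.5, 106 and 107 in the libraries labelled NT array and 109, 101 and 108 in those labelled ANXA4 array. Every NT shRNA library was below every other library, with no overlap. The log2 difference from the NT shRNA was 1.12 ± 0.041 with the ANXA4 shRNA (limma adjusted p = 7.55e-14), 0.93 ± 0.041 with the B4GALNT1 shRNA (1.61e-12) and 0.80 ± 0.041 with the NT gRNA (2.42e-11). The authors' deposited table gave 1.144 and 0.99 for the pair of shRNA comparisons. PSMA6 made up 5.70% ± 0.233 of the summed outer-ring FPKM in the NT shRNA libraries and 8.53% to 10.75% on average in the other groups.

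Of the 7 outer-ring genes tested, 5 were higher and 1 lower with the ANXA4 shRNA, 5 were higher with the B4GALNT1 shRNA and 4 were higher with the NT gRNA. Of all genes tested, 25.6%, 18.4% and 22.4% were higher in the same order, and 26.3% were lower with the ANXA4 shRNA. The genes other than PSMA6 moved less. PSMA4 rose by 0.39 ± 0.041 with the ANXA4 shRNA, 0.22 ± 0.041 with the B4GALNT1 shRNA and 0.25 ± 0.041 with the NT gRNA (limma adjusted p = 1.82e-07, 0.000277 and 7.28e-05). PSMA3 rose by 0.17, 0.17 and 0.15 in the same order. PSMA1 went its own way: it measured 101, 98.9 and 99.6 FPKM with the NT shRNA, 80.4, 75.3 and 79.5 with the ANXA4 shRNA and 104, 110 and 108 with the B4GALNT1 shRNA. The ANXA4 shRNA libraries were the lowest and did not overlap the others. Its log2 difference was -0.35 ± 0.036 with the ANXA4 shRNA (limma adjusted p = 1.65e-07) and 0.10 ± 0.036 with the B4GALNT1 shRNA (0.0299). The second call was lost without NT shRNA replicate 2 or 3 or B4GALNT1 shRNA replicate 2 or 3 (adjusted p = 0.0714 to 0.11 by limma). PSMA7 was called by limma in none of the comparisons with the NT shRNA, with log2 differences of 0.02, 0.06 and 0.09, while the authors' deposited table calls it with the B4GALNT1 shRNA (0.10, adjusted p = 0.0107). PSMA5 rose by 0.24 ± 0.059 with the ANXA4 shRNA (limma adjusted p = 0.00197). With the B4GALNT1 shRNA it was at -0.15 ± 0.059, just short of a call (limma adjusted p = 0.0538) and with no overlap of libraries. The authors' deposited table calls PSMA5 lower there (-0.11, adjusted p = 0.039).

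All 7 inner-ring genes were called with each agent against the NT shRNA. Over all genes tested the share called was 51.8% (ANXA4 shRNA), 44.4% (B4GALNT1 shRNA) and 48.9% (NT gRNA). All inner-ring genes were higher with the B4GALNT1 shRNA (18.4% of all genes tested) and with the NT gRNA (22.4%). With the ANXA4 shRNA 6 were higher (25.6%) and PSMB2 was lower (26.3%). PSMB6 measured 111, 116 and 107 FPKM with the NT shRNA, 171, 172 and 167 with the ANXA4 shRNA, and 147, 156 and 154 with the B4GALNT1 shRNA. It measured 166, 154 and 147 FPKM with the NT gRNA, 152, 162 and 151 with the B4GALNT1 gRNA, and 175 to 207 in the 6 array libraries. The NT shRNA libraries were again below all others. The log2 differences of PSMB6 from the NT shRNA were 0.61 ± 0.056 (ANXA4 shRNA), 0.45 ± 0.056 (B4GALNT1 shRNA) and 0.48 ± 0.056 (NT gRNA), with limma adjusted p = 2.93e-08, 2.31e-06 and 1.14e-06. The other subunits with a proteolytic site moved likewise, PSMB5 by 0.53, 0.40 and 0.48 and PSMB7 by 0.40, 0.20 and 0.35.

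PSMB2, a structural inner-ring subunit, differed in direction between the shRNAs. It measured 43.5, 45.4 and 43.0 FPKM with the NT shRNA, 39.8, 38.6 and 41.0 with the ANXA4 shRNA and 54.0, 54.8 and 54.0 with the B4GALNT1 shRNA. The 3 groups did not overlap. PSMB2 fell by 0.14 with the ANXA4 shRNA (SE 0.034, limma adjusted p = 0.00174) and rose by 0.30 ± 0.034 with the B4GALNT1 shRNA (7.6e-07). The call of PSMB4 with the ANXA4 shRNA was the weakest of the ring (0.10 ± 0.042, limma adjusted p = 0.0487). It was lost when any of the 6 libraries compared was left out (adjusted p = 0.0606 to 0.133 by limma). With the NT gRNA the call of PSMB4 was lost without NT shRNA replicate 1 or NT gRNA replicate 2, and that of PSMB3 with the B4GALNT1 shRNA was lost without NT shRNA replicate 1 or 3 or B4GALNT1 shRNA replicate 2 or 3.

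**Figure D3:**
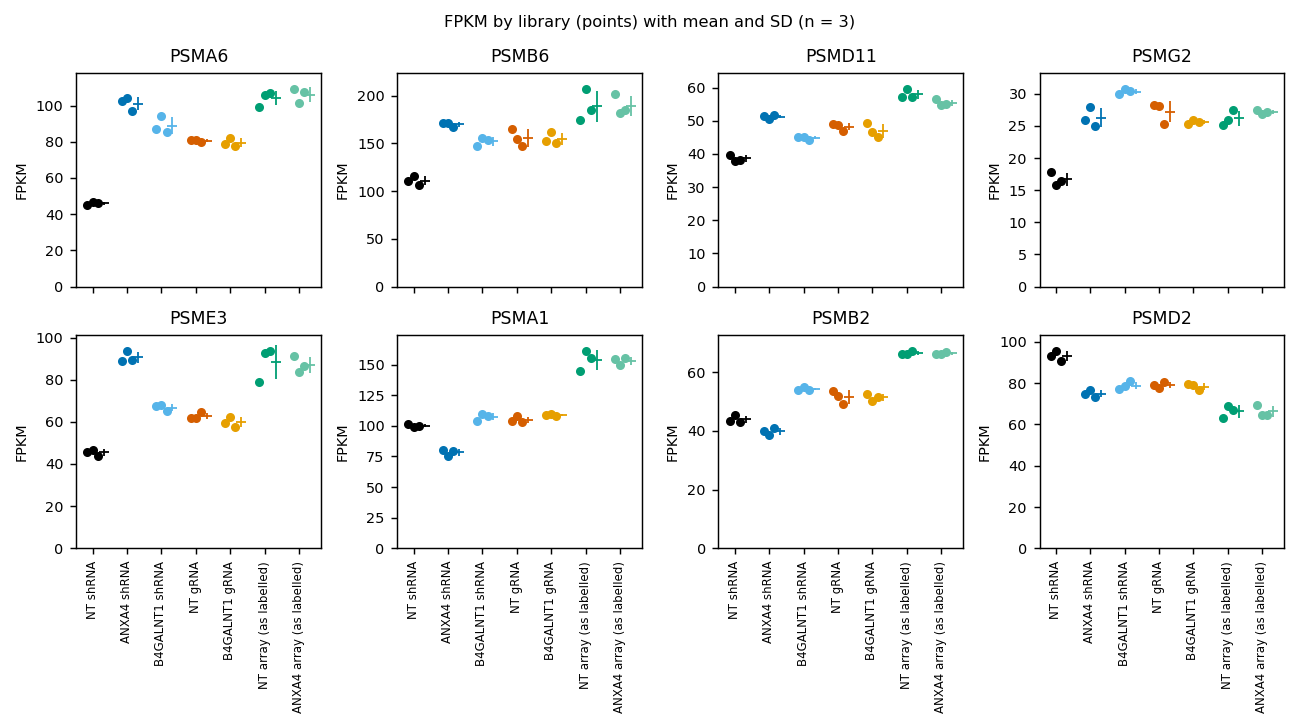
FPKM of 8 genes in each of the 21 libraries (points, 3 per group) with the group mean and SD beside them, all axes from 0. PSMA6, PSMB6, PSMD11, PSMG2 and PSME3 are lowest in the NT shRNA libraries, PSMD2 is highest there, and PSMA1 and PSMB2 are lowest with the ANXA4 shRNA.

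The immunoproteasome subunits were low and noisy as listed, and the copy limit given above holds for PSMB8 and PSMB9. PSMB9 measured 2.50, 4.07 and 2.12 FPKM with the NT shRNA, 2.78, 2.75 and 4.04 with the ANXA4 shRNA and 1.53, 2.12 and 1.44 with the B4GALNT1 shRNA. Its spread within groups was wide. PSMB9 was lower with the B4GALNT1 shRNA by a log2 difference of -0.51 ± 0.156 (limma adjusted p = 0.0124), a call lost without NT shRNA replicate 2 (0.102) or B4GALNT1 shRNA replicate 3 (0.0554). PSMB10 measured 12.4, 12.6 and 12.8 FPKM with the NT shRNA, 15.4, 18.6 and 17.3 with the ANXA4 shRNA, and 11.5, 10.7 and 12.3 with the B4GALNT1 shRNA. It was higher with the ANXA4 shRNA by 0.41 ± 0.110 (limma adjusted p = 0.00409) and not called with the B4GALNT1 shRNA (-0.12, 0.403). PSMB8 did not reach the 1 FPKM filter, and the authors' deposited table gives it at -1.71 with the B4GALNT1 shRNA (adjusted p = 0.0224) and -1.3 with the ANXA4 shRNA (0.0677).

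In the 19S cap, of 17 tested genes, 7 were higher and 4 lower with the ANXA4 shRNA, 7 were higher and 4 lower with the B4GALNT1 shRNA, and 4 were higher and 3 lower with the NT gRNA. The 14 tested core genes gave 11 and 2, 12 and 0, and 11 and 0 in the same order. Of all genes tested, 25.6% were higher and 26.3% lower, 18.4% and 26.0%, and 22.4% and 26.5%. After median-centring the cap gave 7 and 2, 7 and 1, and 5 and 1, and the core 10 and 2, 12 and 0, and 12 and 0. With only the compared groups fitted, the core gave 12 and 1 for the B4GALNT1 shRNA. The median log2 difference was 0.24, 0.19 and 0.23 in the core and 0.074, 0.052 and -0.0023 in the cap. Median-centring moved the cap medians to 0.081, 0.099 and 0.042, and the core medians to 0.25, 0.24 and 0.28. No test compares the lists here.

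Summed over genes, the core was at 2031 ± 42.6 FPKM (SD, n = 3) in the NT shRNA libraries and at group means of 2370 to 2755 elsewhere. The cap was at 1264 ± 19.4 FPKM with the NT shRNA and at 1240 to 1435 elsewhere. The core-to-cap ratio was 1.60 to 1.62 in the NT shRNA libraries and 1.82 to 1.96 in the other 18, with no overlap. Without PSMA6 it was 1.56 to 1.58 in the NT shRNA libraries and 1.76 to 1.89 in the rest. Assembly factors summed to 240.6 ± 5.94 FPKM with the NT shRNA and to group means of 251 to 286 elsewhere.

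**Figure D4:**
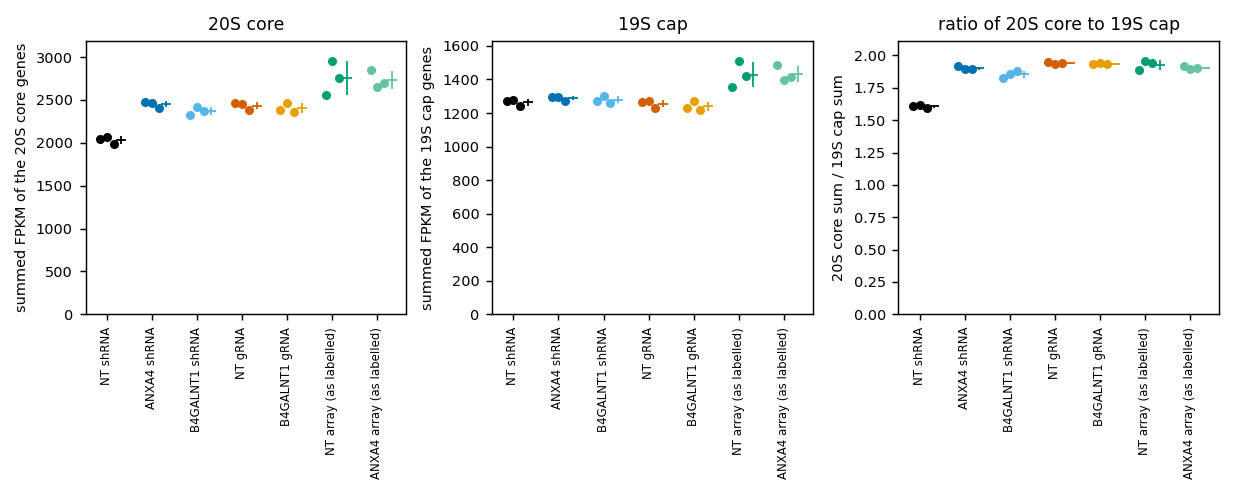
Summed FPKM of the 20S core genes (left) and the 19S cap genes (middle), and their ratio (right), per library (points, 3 per group) with mean and SD, axes from 0. The ratio is 1.60 to 1.62 in the NT shRNA libraries and at least 1.82 in every other library, while the cap sum of the NT shRNA libraries overlaps those of other groups.

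Among the ATPases of the cap, PSMC5 rose by 0.15 ± 0.041 with the ANXA4 shRNA (limma adjusted p = 0.00574). With the B4GALNT1 shRNA it was lower by -0.12 ± 0.041 (0.022), a call lost after median-centring (0.194) and without NT shRNA replicate 3, B4GALNT1 shRNA replicate 1 or B4GALNT1 shRNA replicate 3 (0.0505 to 0.0894). The authors' deposited table does not call PSMC5 with the B4GALNT1 shRNA (-0.080, adjusted p = 0.0961). With the NT gRNA PSMC5 was called lower, a call lost in 4 alternative settings. PSMC3 was called lower with both shRNAs (-0.12 with each, limma adjusted p = 0.0356 and 0.0395) and with the NT gRNA. These calls were lost in 6, 7 and 1 alternative settings, in that order. The authors' deposited table calls PSMC3 with the ANXA4 shRNA (-0.11, adjusted p = 0.00596) but not with the B4GALNT1 shRNA (-0.080, adjusted p = 0.0651). PSMC2 was called in none of the 3 comparisons with the NT shRNA (log2 differences of 0.03, 0.05 and -0.10). PSMC1, at 3.19 to 5.87 FPKM, was 0.27 ± 0.13 and 0.00 ± 0.13 from the NT shRNA with the ANXA4 and B4GALNT1 shRNAs, neither called. With the NT gRNA it was higher by 0.33 ± 0.13 (limma adjusted p = 0.0419). That call was lost with no filter on low values (0.0793 by limma) and without NT shRNA replicate 3 (0.253) or any of NT gRNA replicates 1, 2 and 3 (0.0578 to 0.115).

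PSMD11, a scaffold of the lid that helps to join cap and core, measured 39.7, 38.0 and 38.2 FPKM with the NT shRNA, 51.4, 50.6 and 51.7 with the ANXA4 shRNA and 45.0, 45.2 and 44.3 with the B4GALNT1 shRNA. It measured 49.1, 48.6 and 47.0 FPKM with the NT gRNA, 49.2, 46.8 and 45.0 with the B4GALNT1 gRNA, and 54.7 to 59.6 in the array libraries. The NT shRNA libraries were the lowest of the 21 and the array libraries the highest. PSMD11 rose by 0.40 ± 0.033 (ANXA4 shRNA), 0.21 ± 0.033 (B4GALNT1 shRNA) and 0.31 ± 0.033 (NT gRNA), with limma adjusted p = 7.79e-09, 4.11e-05 and 4.13e-07. PSMD12, another lid scaffold, rose by 0.36 and 0.29 with the shRNAs and was not called with the NT gRNA (0.09, limma adjusted p = 0.171). PSMD1 rose by 0.16 and 0.14 with the ANXA4 and B4GALNT1 shRNAs (limma adjusted p = 0.00571 and 0.0207), the second call being lost in 2 alternative settings.

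PSMD2, a large scaffold of the cap base that docks ubiquitin-binding shuttles, moved the other way. It measured 93.2, 95.6 and 90.8 FPKM with the NT shRNA, 75.0, 76.8 and 73.1 with the ANXA4 shRNA, 77.2, 78.4 and 80.8 with the B4GALNT1 shRNA, 76.5 to 80.5 in the 6 single-guide libraries and 63.1 to 69.4 in the 6 array libraries. The NT shRNA libraries were above all others. PSMD2 fell by 0.31, 0.24 and 0.23 (SE 0.037 each) with the ANXA4 shRNA, the B4GALNT1 shRNA and the NT gRNA, with limma adjusted p = 8.78e-07, 2.96e-05 and 3.73e-05. PSMD8, a lid subunit, fell by 0.34 with the ANXA4 shRNA (limma adjusted p = 2.81e-07) and was at -0.01 with the B4GALNT1 shRNA (0.792). PSMD6, also of the lid, was higher by 0.33 with the ANXA4 shRNA (1.81e-06 by limma) and lower with the B4GALNT1 shRNA (-0.14, 0.0103), the latter call being lost after median-centring (0.0901) and with voom (0.138). The authors' deposited table does not call PSMD6 with the B4GALNT1 shRNA (-0.12, adjusted p = 0.0528). PSMD14, the deubiquitinase of the cap, rose by 0.20 with the ANXA4 shRNA (limma adjusted p = 0.012) and was at -0.10 with the NT gRNA (0.191, not called). Its rise of 0.17 with the B4GALNT1 shRNA (limma adjusted p = 0.0313) was lost with no filter (0.0569) and without NT shRNA replicate 2 or 3 or any of B4GALNT1 shRNA replicates 1, 2 and 3 (0.0538 to 0.0951).

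Of the assembly factors, PSMG2 moved most. PSMG2 and PSMG1 form the chaperone pair that starts the outer ring. PSMG2 measured 17.8, 15.8 and 16.5 FPKM with the NT shRNA, 25.9, 27.9 and 24.99 with the ANXA4 shRNA, 30.0, 30.7 and 30.4 with the B4GALNT1 shRNA, and 25.2 to 28.2 in the 12 RfxCasR libraries. The NT shRNA libraries were the lowest and the B4GALNT1 shRNA libraries the highest, with no overlap. PSMG2 rose by 0.63 ± 0.049 (ANXA4 shRNA), 0.83 ± 0.049 (B4GALNT1 shRNA) and 0.67 ± 0.049 (NT gRNA), with limma adjusted p = 3.61e-09, 1.35e-10 and 3.37e-09. PSMG1 rose by 0.32 and 0.42 with the ANXA4 and B4GALNT1 shRNAs. With the NT gRNA it was higher by 0.17 ± 0.053 (limma adjusted p = 0.0136), a call lost without NT shRNA replicate 2 (0.0528) or NT gRNA replicate 2 (0.0522).

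The second chaperone pair was less mobile. PSMG3 rose by 0.23 ± 0.060 with the ANXA4 shRNA (limma adjusted p = 0.00314) and was at -0.03 and -0.01 with the B4GALNT1 shRNA and the NT gRNA. PSMG4 was called by limma in no comparison with the NT shRNA, with libraries from 21.4 to 31.3 FPKM, while the authors' deposited table calls it higher with the B4GALNT1 shRNA (0.28, adjusted p = 0.0171). PSMD9, a chaperone of the ATPase ring, fell by 0.25, 0.29 and 0.23 (SE 0.055 each), with limma adjusted p = 0.000854, 0.000218 and 0.00213. PSMD10, the ATPase-ring chaperone also named gankyrin, was at 0.06, 0.09 and -0.05. Its call with the B4GALNT1 shRNA (limma adjusted p = 0.0263) was lost without NT shRNA replicate 1 or 3 or B4GALNT1 shRNA replicate 2 or 3 (0.0602 to 0.114).

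The regulators bind the open ends of the core in place of the cap. PSME3, the nuclear activator, measured 45.7, 46.8 and 43.9 FPKM with the NT shRNA, 88.8, 93.7 and 89.3 with the ANXA4 shRNA, 67.6, 67.8 and 64.9 with the B4GALNT1 shRNA, 57.6 to 64.5 in the 6 single-guide libraries and 78.9 to 93.5 in the 6 array libraries. The NT shRNA libraries were the lowest of all. PSME3 rose by 0.98 ± 0.053 (ANXA4 shRNA), 0.54 ± 0.053 (B4GALNT1 shRNA) and 0.45 ± 0.053 (NT gRNA), with limma adjusted p = 1.59e-11, 9.8e-08 and 1.13e-06.

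PSME4, the large nuclear activator, measured 20.4, 19.1 and 19.2 FPKM with the NT shRNA, 14.1, 13.9 and 13.01 with the ANXA4 shRNA and 18.8, 19.05 and 17.2 with the B4GALNT1 shRNA. The ANXA4 shRNA libraries were the lowest of the 21. It fell by 0.49 with the ANXA4 shRNA (SE 0.053, limma adjusted p = 2.56e-07) and was at -0.09 (0.179) with the B4GALNT1 shRNA. PSMF1, a proteasome inhibitor in vitro, fell by 0.32 with the ANXA4 shRNA (6.13e-07 by limma) and was at 0.02 with the B4GALNT1 shRNA. PSME1 and PSME2 form the interferon-induced activator of the core. PSME1 fell by 0.22 with the ANXA4 shRNA (limma adjusted p = 0.00101), and PSME2 was called in none of the 3 comparisons with the NT shRNA. PSME1 was also called lower with the NT gRNA, a call lost in 7 alternative settings.

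With RfxCasR and the B4GALNT1 gRNA, no proteasome gene was called against the NT gRNA. By limma 0 of 44 were called (0.00731% of all genes tested), and 0 of 44 had an unadjusted p under 0.05 (3.82%). A voom fit on recovered reads and the authors' deposited table (0.0125% of their genes) also called 0. The log2 differences ran from -0.08 (PSMG2) to 0.08 (PSMB9). The 95% interval lay within 0.25 of 0 for 40 of the 44 genes, and the bound farthest from 0 was 0.41, for PSMB9. PSMA6, for example, measured 78.8 to 82.2 FPKM with the B4GALNT1 gRNA and 79.9 to 81.2 with the NT gRNA. Libraries of the groups did not overlap for 3 genes, PSMA1, PSMB4 and PSMC3 (11.8% of all genes tested).

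The change with the B4GALNT1 shRNA was set against that with the B4GALNT1 gRNA, each from its own NT control, by the interaction term of the limma fit. The difference was called for 18 of 44 genes (29.8% of all genes tested), with 16 higher with the shRNA (12.9%) and 2 lower (16.9%). In the core 9 of 14 were higher and 0 lower, and in the cap 4 of 17 were higher and 1 lower. The term was 0.96 ± 0.058 for PSMA6, 0.91 ± 0.070 for PSMG2 and 0.61 ± 0.074 for PSME3 (limma adjusted p = 6.14e-10, 1.43e-08 and 4.66e-06). The NT shRNA and NT gRNA libraries themselves differed for these genes by 0.80, 0.67 and 0.45.

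Between the libraries labelled ANXA4 array and NT array, limma called 0 of 44 genes (0.285% of all genes tested). An unadjusted limma p under 0.05 was found for 2, PSMD10 and PSMF1 (10.8% of all genes tested). Voom and the authors' deposited table (0.0367% of their genes) called 0. The 95% interval lay within 0.25 of 0 for 40 of 44 genes. It rests on a spread shared by all groups, while the array libraries varied more. The summed core FPKM had an SD of 198.5 and 104.6 in the array groups and 36.0 to 58.1 in the others. These intervals may therefore be too narrow. Libraries did not overlap for 4 genes, PSMB9, PSMD10, PSMD11 and PSMF1 (10.3% of all genes tested).

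The 6 array libraries stood above the 6 single-guide libraries for most members. Of 44 genes 31 were called by limma (67.8% of all genes tested), with 29 higher (28.5%) and 2 lower (39.3%). Here the cap moved with the core: 13 of 17 cap genes were higher and 1 lower, and 10 of 14 core genes were higher and 1 lower, with medians of 0.25 in each. The recovered depth of the arrays also differed from that of the single guides (24467682 to 30664896 reads), being higher or lower according to the read step taken, and the part of depth in this result was not tested. Libraries did not overlap for 23 members (42.8% of all genes). The member median was 0.16 and that of all genes -0.047.

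PSMD6 led this comparison, with 90.7 to 102 FPKM in the array libraries and 64.5 to 67.9 in the single-guide libraries (0.56 ± 0.029, limma adjusted p = 8.24e-12). PSMA1, with 145 to 161 FPKM against 103 to 110, was higher by 0.52 ± 0.026 (3.65e-12 by limma). The deubiquitinase partner PSMD7 was at 110 to 119 FPKM against 75.4 to 86.8 (0.48 ± 0.030). None of these 3 overlapped. PSME3 and PSME2 were higher by 0.51 and 0.47, and PSMD8 and PSMG1 by 0.40 and 0.43. PSMD2 fell by 0.24 (limma adjusted p = 1.12e-07). PSMA2 was lower by a log2 difference of -0.11 (0.0198 by limma), a call lost after median-centring (0.409) and without B4GALNT1 gRNA replicate 2, NT array replicate 1 or ANXA4 array replicate 2 (0.0521 to 0.0657).

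The targeting shRNAs were also compared directly, without the NT shRNA libraries. Here 23 of 44 genes were called (46.7% of all genes tested), with 14 higher with the ANXA4 shRNA (27.1%) and 9 lower (19.6%). Libraries did not overlap for 30 members (56.4%). The split was 11 and 11 after median-centring and 12 and 12 with voom. PSMA6 differed by 0.18 ± 0.041 (limma adjusted p = 0.00102) and PSMD11 by 0.19 ± 0.033 (0.000123 by limma). The 0.16 ± 0.056 of PSMB6 (0.0266 by limma) was lost after median-centring (0.125), with voom on recovered reads (0.0698) and without ANXA4 shRNA replicate 1 or 2 or B4GALNT1 shRNA replicate 1 (0.0652 to 0.1).

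Lower with the ANXA4 shRNA than with the B4GALNT1 shRNA were PSMA1 (-0.45 ± 0.036), PSMB2 (-0.44 ± 0.034), PSME4 (-0.40 ± 0.053), PSMF1 (-0.34 ± 0.037) and PSMD8 (-0.33 ± 0.037), each with limma adjusted p of at most 4.41e-06. Higher were PSMB9 (0.63 ± 0.156, limma adjusted p = 0.00259), PSMB10 (0.53 ± 0.110, 0.000596), PSMD6 (0.47 ± 0.041, 2.35e-08), PSME3 (0.43 ± 0.053, 1.56e-06) and PSMA5 (0.39 ± 0.059, 2.53e-05). The inducible subunits that were tested, PSMB9 and PSMB10, were thus higher with the ANXA4 shRNA. These were the lowest-level members tested besides PSMC1. PSMB8 was not tested, and its libraries overlapped (0.14 to 0.357 FPKM with the ANXA4 shRNA, 0.112 to 0.184 with the B4GALNT1 shRNA). PSMG2 was lower (-0.20 ± 0.049) and PSMG3 higher (0.26 ± 0.060) with the ANXA4 shRNA. For PSMB1, PSMA3 and PSMA2 no difference was called, with log2 differences of -0.02, 0.00 and 0.02.

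**Figure D5:**
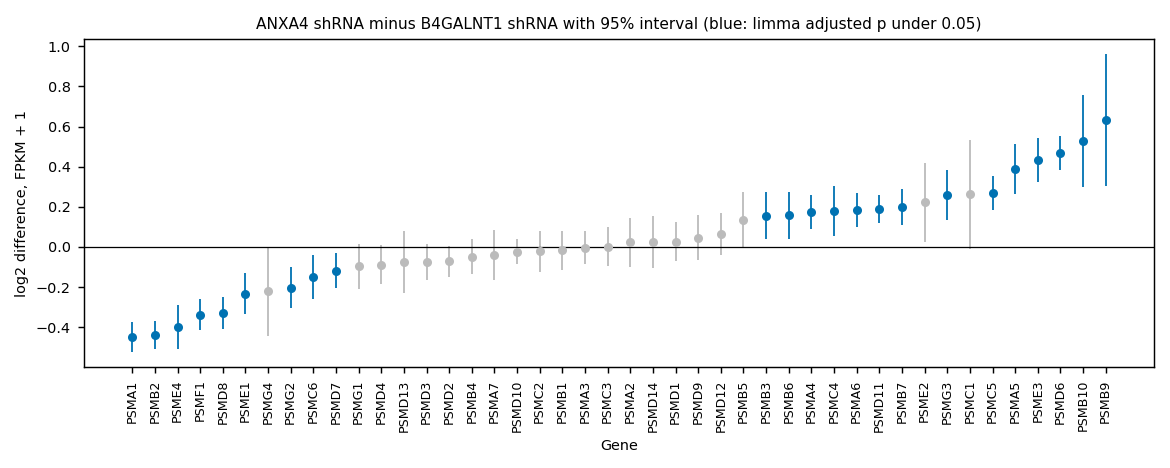
Log2 difference, log2(FPKM + 1), of the ANXA4 shRNA minus the B4GALNT1 shRNA group for the 44 tested genes, with the 95% interval; blue points were called by limma. PSMA1 and PSMB2 are lowest at -0.45 and -0.44, and PSMB9 and PSMB10 are highest at 0.63 and 0.53 with the widest intervals among the called genes.

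A list of 25 other genes of the pathway was read too, and 24 were found, among them the assembly chaperone POMP, proteasome-bound ubiquitin enzymes, shuttle proteins, ubiquitin-activating enzymes and the factors NFE2L1, NFE2L2 and HSF1. With the ANXA4 shRNA 8 were higher and 8 lower, with the B4GALNT1 shRNA 5 and 4, and with the NT gRNA 4 and 11, all against the NT shRNA. The share called in either direction over all genes tested was 51.8%, 44.4% and 48.9%. The B4GALNT1 gRNA and the labelled arrays gave 0 in each direction by limma (0.00731% and 0.285% of all genes called). At an unadjusted p under 0.05 they gave 0 and 1 genes (3.82% and 10.8% of all genes). The authors' deposited tables called 0 of the 24 in each (0.0125% and 0.0367% of their genes). POMP, which matures the core, measured 49.2 ± 0.734 FPKM with the NT shRNA, 64.9 ± 1.42 with the ANXA4 shRNA and 50.0 ± 0.391 with the B4GALNT1 shRNA. It rose by 0.39 ± 0.056 with the ANXA4 shRNA (limma adjusted p = 9.44e-06) and was at 0.02 with the B4GALNT1 shRNA. POMP was also higher with the NT gRNA than with the NT shRNA (0.19 ± 0.056, limma adjusted p = 0.0107). In the arrays it was higher than with the single guides (0.32 ± 0.040, 7e-07 by limma).

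SQSTM1, a shuttle and autophagy receptor for ubiquitinated proteins, averaged 20.4 FPKM with the NT shRNA, 48.7 and 46.8 with the ANXA4 and B4GALNT1 shRNAs and 43.6 with the NT gRNA. NFE2L1 averaged 54.9 FPKM with the NT shRNA and rose with the shRNAs to 69.8 and 62.4, by 0.34 ± 0.041 and 0.18 ± 0.041 (limma adjusted p = 1.16e-06 and 0.00144). It was not called with the NT gRNA (0.10, limma adjusted p = 0.0614) and was lower in the arrays than with the single guides (-0.14, 0.000272). NFE2L2, a related factor of the antioxidant response, fell by 0.21, 0.29 and 0.26 with the ANXA4 shRNA, the B4GALNT1 shRNA and the NT gRNA. UBA1, the main ubiquitin-activating enzyme, averaged 158 FPKM with the NT shRNA, 93.7 with the ANXA4 shRNA and 158 with the B4GALNT1 shRNA. It fell by 0.75 ± 0.033 with the ANXA4 shRNA (limma adjusted p = 1.11e-12).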

How the data were processed

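The authors deposited FPKM values for 21 stranded mRNA libraries, made with STAR and HOMER on hg19 per the submitters' processing notes and the file headers (reads in exons, isoforms condensed to 1 row per gene). They also deposited tables of 4 comparisons with a mean normalized count per gene over libraries (a signal), log2 fold changes and p-values. DESeq2 1.14.1 and R 3.3.2 are listed in the submitters' processing notes. The members and lists were chosen with earlier results of these data known. Named in full were PSMA6, PSMB6 and PSMD11, up to 5 called members per direction and comparison with the largest change and no overlap, members called with both shRNAs, members under 1 FPKM, and the inducible, regulator and assembly genes.

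The 13679 genes that reached 1 FPKM in 3 or more libraries were tested with limma 3.58.1 (R 4.3.3) on log2(FPKM + 1), 1 coefficient per group and a trended prior; the pseudocount of 1 understates changes of low genes. Differences carry the standard error of the fit and group means the SD. Whole reads were recovered from the FPKM steps (97.4% to 99.7% of the low values examined lay within 0.1 of a whole number) and put through voom as an alternative, as were a pseudocount of 0.1, no filter, median-centring, a replicate block, the compared groups alone and each library left out. For the array libraries alone a smaller step was taken, because 71.6% to 72.4% of low values were whole at the larger step and 100% at the smaller. The larger step would make them the shallower libraries (17333195 to 19738840 reads). The fit was tested on simulated data with known log2 changes of 0.25, 0.5 and 1, each given to 66 to 68 of the 13679 genes. It recovered 29.4% to 57.4% of the changes of 0.25 and 95.5% to 97% of those of 1. Between the labelled arrays 75 of 231 calls were false, and for the arrays against the single guides 17 of 183. The other comparisons gave 1 to 5 false calls among 146 to 160. In the data far more genes were called, except with the B4GALNT1 gRNA and between the labelled arrays. The adjusted threshold is then less strict, so these rates may not carry over. Tools and parameters of the alignment beyond these names are not given in the sources used here.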

Additional observations from a re-analysis of the deposited data

Results flagged for a closer look

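For 18 proteasome genes the change with the B4GALNT1 shRNA differed from the change with the B4GALNT1 gRNA, each taken from its own non-targeting control, by the interaction term of the limma fit (adjusted p under 0.05 over 13679 genes). All values are differences of log2 changes, shRNA minus gRNA, with 3 libraries in each of the 4 groups. In the outer ring of the core the term was 0.96 for PSMA6, 0.24 for PSMA3 and 0.22 for PSMA4. In the inner ring it was 0.28 for PSMB1, 0.30 for PSMB2, 0.19 for PSMB4, 0.44 for PSMB5, 0.46 for PSMB6 and 0.25 for PSMB7. In the cap it was 0.18 for PSMD3, 0.18 for PSMD7, 0.25 for PSMD11, 0.30 for PSMD12 and -0.23 for PSMD2. Among the assembly factors it was 0.37 for PSMG1, 0.91 for PSMG2 and -0.25 for PSMD9, and among the regulators 0.61 for PSME3. The calls of PSMD3 (limma adjusted p = 0.035), PSMD7 (0.0302) and PSMD9 (0.0177) were the least stable: each was lost on leaving out at least 1 library, among them B4GALNT1 gRNA replicate 1 (0.0911, 0.0654 and 0.0523) and B4GALNT1 shRNA replicate 2 (0.0674, 0.0747 and 0.0572). The term contains both non-targeting controls, and its parts cannot be told apart from a difference between those controls.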

How the results depend on the processing

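The counts of called members stayed within 1.5 times their reported value under every alternative run: a pseudocount of 0.1, no filter on low values, median-centring, a fit of the compared groups alone, voom on recovered reads, leaving out each library and, chosen after seeing the data, leaving out the array libraries. Leaving out 1 library gave 29 to 30 calls for the ANXA4 shRNA, 21 to 26 for the B4GALNT1 shRNA, 18 to 22 for the NT gRNA against the NT shRNA, 30 to 34 for the arrays against the single guides, 19 to 22 for the direct shRNA comparison and 15 to 20 for the interaction term. The B4GALNT1 gRNA and labelled array comparisons stayed at 0. No member's call reversed in sign, and the calls lost in many settings lay near the threshold, such as PSMD3 in the interaction term and PSMD4 and PSMB4 with the ANXA4 shRNA. Replicate numbers paired the samples weakly at most: libraries of the same number deviated from their group means with correlations of -0.146 to 0.0901 across genes. Between the B4GALNT1 gRNA and the NT gRNA, same-number correlations (0.0325 to 0.0723) exceeded those of other numbers (at most 0.000845). In every group without an array, recovered depth was highest in replicate 1 and lowest in replicate 2. What libraries of the same number share was not tested. A fit with the replicate number as a block called 33, 30, 0, 0 and 24 members for the ANXA4 shRNA, B4GALNT1 shRNA, B4GALNT1 gRNA, labelled array and NT gRNA against NT shRNA comparisons. With 3 libraries a group, PSMB9, PSMC1 and other low genes were measured least precisely.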
